A study of Mus musculus with 15 samples.

Results

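The Janus kinases and the signal transducers and activators of transcription, the JAK and STAT families, were described here through 9 mouse genes chosen by name. These were the kinases Jak1, Jak2 and Jak3 and the transcription factors Stat2, Stat3, Stat4, Stat5a, Stat5b and Stat6. They were 9 of 17493 genes in the count tables, and all 9 were among the 10831 genes with enough reads to be tested. The kinase Tyk2 was kept on a separate list with receptors, ligands, inhibitors and target genes of the pathway.

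The series measured RNA in CD8+ OT-I T cells of female mice (strain OT-1, also named C57BL/6-Tg(TcraTcrb)1100Mjb/Crl), which carry a transgenic T cell receptor for a peptide of ovalbumin presented by MHC class I. Cells came from spleen and lymph nodes, and 5 groups of 3 libraries were compared. The first group was unstimulated (0 h). In the IF groups, 50000 T cells per well received immunofilaments, synthetic polymers that carried SIITFEKL-loaded MHC together with IL-2, at 5 ng per ml for 8 h or 22 h. In the DC groups, the same number of T cells was cultured with 20000 dendritic cells per well, grown with Flt-3 ligand and pulsed with SIITFEKL, also for 8 h or 22 h. Viable CD8+ CD103- cells were then sorted and their RNA was counted by an adapted CEL-seq protocol, which reads the 3' ends of transcripts. All groups shared the transgenic receptor. SIITFEKL is an altered form of the ovalbumin peptide. IL-2 belonged to the IF stimulus, and its presence in the DC wells and the age of the mice are not given in the sources used here. The stimulus, IL-2 and contact with dendritic cells therefore cannot be told apart between IF and DC. No unstimulated cells cultured for 8 h or 22 h were among the groups. Against unstimulated cells, stimulation and time in culture therefore cannot be told apart either.

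A JAK kinase sits on the inner tail of a cytokine receptor and is activated when the cytokine brings receptor chains together. It phosphorylates the receptor and then a STAT protein, which pairs with another STAT, enters the nucleus and binds DNA. In CD8+ T cells, IL-2 acts through JAK1 and JAK3 on STAT5A and STAT5B and drives growth and survival. STAT4 serves IL-12 and type I interferon, STAT6 serves IL-4, STAT3 serves IL-6, IL-10 and IL-21, and STAT2 acts with IRF9 in the type I interferon response. The protein activity of these factors is set by phosphorylation, which RNA counts do not measure.

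Library totals ran from 2892874 to 19806730 counts. The IF 8 h libraries held 2892874 to 5572030 counts, which overlapped the unstimulated libraries (4957658 to 7958411), and the IF 22 h libraries included the deepest (7991069 to 19806730). Levels are given as CPM, the counts scaled to a common library size with TMM factors, and differences as log2 fold changes with their standard error (SE). The lowest count of any of the 9 genes in a library was 35, for Jak3 in IF 8 h replicate 2. All 8 genes counted here from the CD8 T cell marker list were found in every library, at a summed 0.502% to 1% of counts, and B cell markers made up at most 0.00346%. The IF 22 h replicates 2 and 3 stood apart from the other libraries. Their mitochondrial ribosomal RNA made up 0.179% and 0.146% of counts, against 1.82% to 4.49% elsewhere. In both of them 127 genes were more than 2-fold below all other libraries, none of the 9 JAK and STAT genes among them. They included 5 of the pathway genes listed further on, Crebbp, Il27ra, Il6ra, Pias4 and Pim1, which are named here for that reason alone. DC 8 h replicate 2 and DC 22 h replicate 2 also deviated from their groups in like ways (r = 0.72 across genes).

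Markers of dendritic cells were read in every group. The summed share of 19 such genes was 0.0985% to 0.135% of counts at DC 8 h and 0.0555% to 0.0765% at DC 22 h. It was 0.062% to 0.137% in unstimulated cells, 0.0246% to 0.0511% at IF 8 h and 0.0416% to 0.064% at IF 22 h, so that the DC and unstimulated ranges overlapped. Single markers differed in direction. All 19 genes were counted in at least 1 library, and 10 of them in all 15. Fscn1, which encodes the fascin of mature dendritic cells, averaged 142 CPM at DC 8 h and 85.1 at DC 22 h, against 2.31 in unstimulated cells, 0.489 at IF 8 h and 23.7 at IF 22 h. Zbtb46, a transcription factor of conventional dendritic cells, had 0 counts in every unstimulated and IF 8 h library and 8 to 23 counts per library at DC 8 h. Itgax, Xcr1, Cst3 and H2-Ab1 instead averaged 14.5, 24.1, 221 and 228 CPM in unstimulated cells and 5.32, 2.86, 145 and 107 CPM at DC 8 h. Dendritic cells use JAK and STAT genes too, and the part of this RNA in the values below was not tested. In bulk RNA, fewer cells of a type and less RNA per cell cannot be told apart.

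Several of the 9 genes lie close together in the genome (GRCm38). Stat5b (chromosome 11, 100780731 to 100850724), Stat5a (100859351 to 100885169) and Stat3 (100885098 to 100939540) are neighbours. Stat5b and Stat5a point away from each other across 8626 bases, and the 3' ends of Stat5a and Stat3 overlap on opposite strands. Whether counting used the strand is not given in the sources used here, so reads at that overlap cannot be told apart. Annotated exons also overlap between Jak3 and Insl3 and between Stat4 and Gm28177, on the same strand. Those of Stat6 and Nab2 and of Jak1 and Raver2 overlap on opposite strands. How reads at these overlaps were counted is not given either. Stat4 (chromosome 1, 51987148 to 52107189) is apart from these, and Stat6 and Stat2 lie on chromosome 10 with 26 protein-coding genes between them. Jak1, Jak2 and Jak3 are on chromosomes 4, 19 and 8. Stat5a and Stat5b transcripts share 510 stretches of 60 bases, the length of the sequenced read. In their full-length transcripts these end at least 1646 bases from the 3' end, whereas 3 shorter annotated transcripts carry some that end 36, 89 and 315 bases from it.

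The promoters of 4 of the genes on which the results turn are shown, as RefSeq gives them on GRCm38.p6, from 250 bases before to 50 bases after the start of transcription. Jak2 and Stat3 rose together in the DC 8 h group, Stat2 differed between stimuli at 22 h, and Stat4 rose at IF 22 h. Capitals mark matches, on either strand, to letters bound by STAT complexes or by factors of T cell activation.
Jak2 promoter: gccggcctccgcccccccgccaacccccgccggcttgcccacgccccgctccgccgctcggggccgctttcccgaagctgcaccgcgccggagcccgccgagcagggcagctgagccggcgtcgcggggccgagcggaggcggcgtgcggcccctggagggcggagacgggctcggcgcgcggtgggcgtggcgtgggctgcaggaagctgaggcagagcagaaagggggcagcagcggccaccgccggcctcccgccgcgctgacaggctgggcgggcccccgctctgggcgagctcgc
Stat3 promoter: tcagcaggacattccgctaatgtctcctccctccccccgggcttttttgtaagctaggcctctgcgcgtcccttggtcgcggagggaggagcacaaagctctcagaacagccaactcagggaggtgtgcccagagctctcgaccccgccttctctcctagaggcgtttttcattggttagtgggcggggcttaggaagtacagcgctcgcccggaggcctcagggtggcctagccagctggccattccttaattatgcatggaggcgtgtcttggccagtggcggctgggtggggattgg
Stat2 promoter: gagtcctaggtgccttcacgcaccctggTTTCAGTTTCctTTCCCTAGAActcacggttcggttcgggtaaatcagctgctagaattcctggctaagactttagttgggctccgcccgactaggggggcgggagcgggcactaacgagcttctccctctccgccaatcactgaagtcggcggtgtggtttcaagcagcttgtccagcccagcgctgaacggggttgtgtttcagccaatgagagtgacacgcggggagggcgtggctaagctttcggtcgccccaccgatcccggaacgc
Stat4 promoter, second start: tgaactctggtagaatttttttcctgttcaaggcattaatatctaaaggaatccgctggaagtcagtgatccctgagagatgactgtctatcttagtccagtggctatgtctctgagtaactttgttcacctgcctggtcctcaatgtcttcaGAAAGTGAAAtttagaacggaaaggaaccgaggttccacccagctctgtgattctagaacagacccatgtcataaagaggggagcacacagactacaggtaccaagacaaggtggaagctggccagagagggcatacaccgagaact
These lie at chr19:29251553-29251852 (plus strand), chr11:100939491-100939790 (minus strand), chr10:128270248-128270547 (plus strand) and chr1:52007990-52008289 (plus strand). Motifs searched were the STAT site GAS as TTCNNNGAA, the same ends TTC and GAA around 4 bases, the interferon-stimulated response element ISRE as GAAA, NN and GAAA, the AP-1 site as TGANTCA and the CRE as TGACGTCA. Of 32851 promoters of 300 bases, 8.3%, 6.95%, 3.44%, 7.81% and 1.79% held them, in that order. The Stat2 promoter held an ISRE match on the minus strand, printed as TTTCAGTTTC, whose first base lies 222 bases before the start. It was followed after 2 bases by TTCCCTAGAA, 210 bases before the start. The second start of Stat4 held the ISRE match GAAAGTGAAA, 97 bases before the start. Jak1 held a CRE match 101 bases before its start. No match to these letters was found in the windows of Jak2, Jak3, Stat3, Stat5a, Stat5b or Stat6, or at the first start of Stat4. Promoters were found for 9 of 9 genes.

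**Figure D1:**
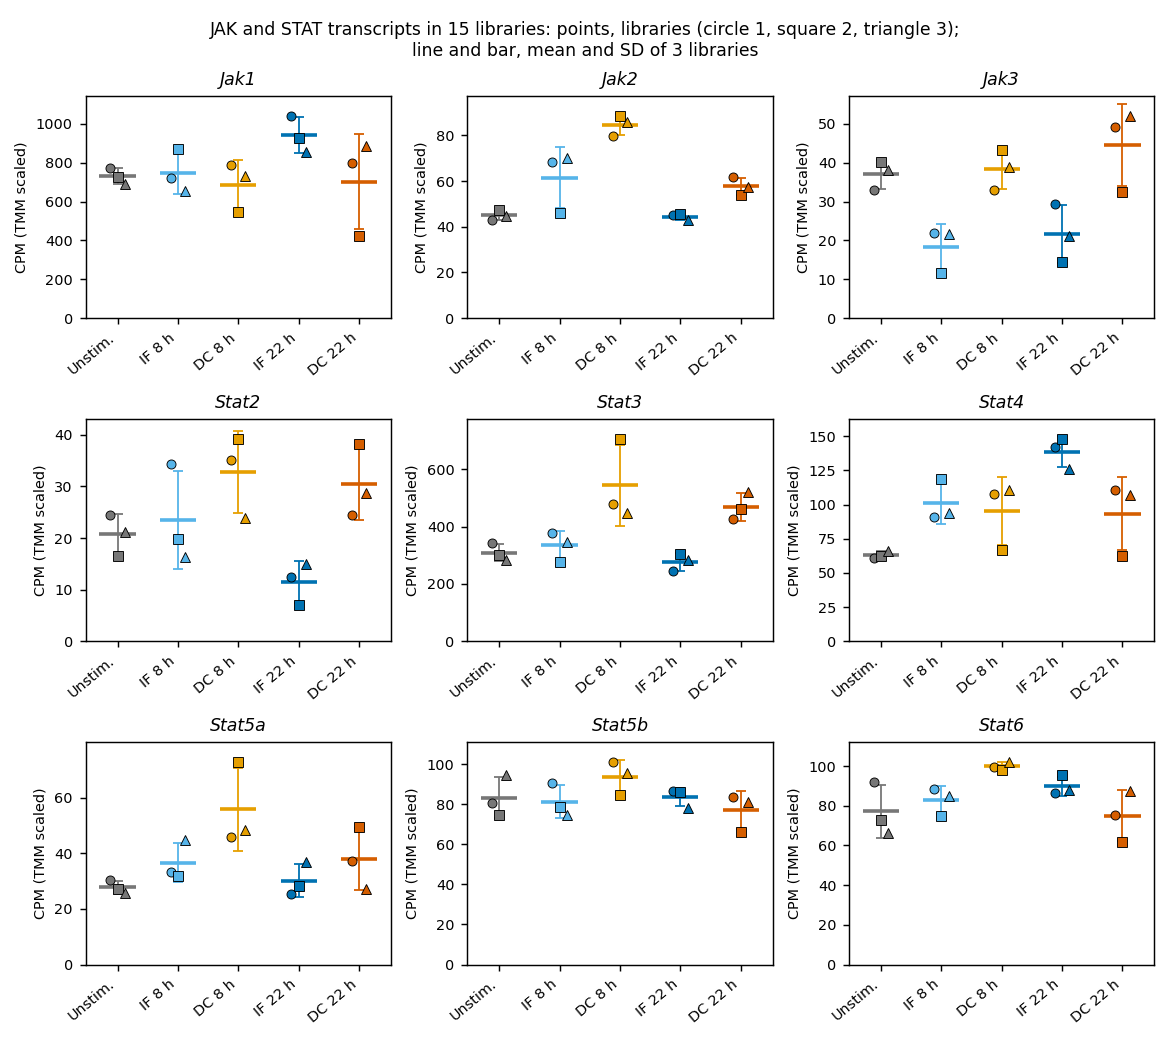
Level of each of the 9 transcripts (CPM, TMM scaled, linear axis from 0) in the 15 libraries by group; points are libraries and the line and bar are the mean and SD of 3. Jak2 sits between 79.8 and 88.6 CPM at DC 8 h and at or below 70.2 in all other libraries, and Stat4 between 126 and 148 CPM at IF 22 h and at or below 119 in all others.

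Among the kinases, Jak2 carries signals of interferon gamma, IL-12 and growth factor receptors. Its levels in unstimulated libraries were 43.2, 47.2 and 44.9 CPM. They were 68.2, 46.1 and 70.2 at IF 8 h and 79.8, 88.6 and 85.9 at DC 8 h. They were 45.0, 45.5 and 43.0 at IF 22 h and 61.6, 53.8 and 57.6 at DC 22 h. Every DC 8 h library lay above every other library of the study. Jak2 rose in DC 8 h cells against unstimulated cells (84.8 ± 4.47 against 45.1 ± 2.01 CPM, SD, n = 3 each). The log2 fold change was 0.91 ± 0.17 (adjusted p = 0.00341, edgeR quasi-likelihood test, Benjamini-Hochberg over all genes), and the call held in all 13 alternative analyses. At IF 8 h the difference was 0.45 ± 0.17 (adjusted p = 0.122) and ranges overlapped, with replicate 2 inside the unstimulated range. Jak2 passed there without IF 8 h replicate 2 (0.62, adjusted p = 0.0392) and with scaling by library size alone (0.69, adjusted p = 0.0179). At DC 22 h it was 0.35 ± 0.17 (adjusted p = 0.228), with no overlap. At IF 22 h it was -0.02 ± 0.17, with a 95% interval from -0.38 to 0.34. From DC 8 h to DC 22 h the difference was -0.56 ± 0.17, which did not pass in edgeR (adjusted p = 0.195), while DESeq2 called it (adjusted p = 0.0333).

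Jak3 is the kinase of the common gamma chain, the receptor subunit shared by IL-2, IL-4, IL-7, IL-15 and IL-21. Unstimulated libraries held 32.9, 40.1 and 38.2 CPM, and IF 8 h libraries 21.8, 11.6 and 21.7. IF 22 h libraries held 29.3, 14.5 and 21.2 CPM. DC libraries held 32.9, 43.2 and 38.8 at 8 h and 49.2, 32.5 and 52.1 at 22 h. In both IF groups all libraries lay below all unstimulated and all DC libraries. Jak3 fell at IF 8 h against unstimulated cells, by 1.00 ± 0.29 on the log2 scale (18.4 ± 5.85 against 37.1 ± 3.75 CPM, adjusted p = 0.0441). This call was close to the threshold: leaving out any 1 of the 6 libraries ended it (adjusted p from 0.0695 to 0.141), and so did scaling by library size alone (-0.76, adjusted p = 0.106). At IF 22 h the difference from unstimulated cells was -0.77 ± 0.28 (adjusted p = 0.117). This value turned on single libraries. It was -1.04 without IF 22 h replicate 1, where it passed (adjusted p = 0.0357), -0.56 without replicate 2 (adjusted p = 0.371) and -0.34 without both replicates 2 and 3 (adjusted p = 0.823). The DC groups differed from unstimulated cells by 0.05 ± 0.28 at 8 h and 0.27 ± 0.27 at 22 h, and neither passed (adjusted p = 0.951 and 0.608).

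Set directly against the DC cells, Jak3 in IF cells gave log2 fold changes of -1.05 ± 0.29 at 8 h and -1.04 ± 0.28 at 22 h, and neither passed (adjusted p = 0.139 and 0.057). Without both IF 22 h replicates 2 and 3 the difference at 22 h was -0.61 (adjusted p = 0.975). DESeq2 called both (adjusted p = 0.0387 and 0.0103), as did edgeR with no filter on low counts (0.0182 and 0.00497). Scaling by library size alone called the difference at 22 h (adjusted p = 0.0419). The change of that difference between times was 0.00 ± 0.37, with an interval from -0.77 to 0.78. IF libraries held lower dendritic cell marker shares than DC libraries at 8 h. Unstimulated libraries, with marker shares of 0.062% to 0.137%, overlapped the DC libraries in Jak3. Single markers differed in direction, as given above, and the part of dendritic cell RNA in these Jak3 values was not tested.

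Jak1, the partner kinase of JAK3 and of most STAT-activating receptors, varied little between groups. Its group means ran from 687 CPM at DC 8 h to 941 at IF 22 h, a 1.37-fold span, and its lowest adjusted p in any comparison was 0.371. IF 22 h libraries held 1041, 926 and 857 CPM, all above the unstimulated libraries (772, 727 and 689), with that p and a difference of 0.37 ± 0.22. The spread was widest at DC 22 h, where replicate 2 held 423 CPM and the other libraries 797 and 886. DC 8 h replicate 2 was likewise the lowest of its group, at 544 against 787 and 731 CPM.

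Stat3 is a factor of IL-6, IL-10 and IL-21 signals. Its levels in unstimulated libraries were 342, 302 and 283 CPM. IF libraries held 379, 277 and 346 CPM at 8 h and 244, 306 and 284 at 22 h. DC libraries held 478, 705 and 447 CPM at 8 h and 425, 461 and 522 at 22 h. All 6 DC libraries were above all 9 unstimulated and IF libraries. Stat3 rose at DC 8 h by 0.81 ± 0.18 (543 ± 141 against 309 ± 29.9 CPM, adjusted p = 0.012). Leaving out unstimulated replicate 2 or 3 or DC 8 h replicate 2 ended the call (adjusted p = 0.0529, 0.0608 and 0.0727). Without DC 8 h replicate 2 the difference was 0.58. At DC 22 h it was 0.60 ± 0.18, which did not pass in edgeR (adjusted p = 0.0536), while DESeq2 called it (adjusted p = 0.0178). The IF groups differed from unstimulated cells by 0.11 ± 0.18 at 8 h and -0.15 ± 0.18 at 22 h, with intervals from -0.27 to 0.50 and from -0.54 to 0.23.

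Between stimuli, Stat3 was lower in IF than in DC cells at 22 h, with a log2 fold change of -0.75 ± 0.18 (278 ± 31.3 against 469 ± 49.5 CPM, adjusted p = 0.0369). The difference at 8 h was -0.70 ± 0.18, which did not pass in edgeR (adjusted p = 0.112) while DESeq2 called it (adjusted p = 0.017). Its change between times was -0.05 ± 0.26 (adjusted p = 0.984). The call at 22 h was lost without any 1 of IF 22 h replicates 1, 2 or 3 or DC 22 h replicates 1 or 3, with an adjusted p of 0.0602 to 0.134, while the size stayed between -0.83 and -0.67. A fit of only the groups compared also ended it (-0.78, adjusted p = 0.095). With the IF 22 h replicates 2 and 3 both left out, the difference was -0.94 (adjusted p = 0.369); the library that remained was assumed to vary like the other groups.

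Stat5a and Stat5b are near-identical factors of the IL-2 response. Stat5a held 30.4, 27.1 and 25.8 CPM in unstimulated libraries and 45.9, 72.7 and 48.5 at DC 8 h. It held 33.2, 31.8 and 44.7 CPM at IF 8 h, 25.4, 28.3 and 36.7 at IF 22 h, and 37.2, 49.4 and 27.2 at DC 22 h. The 3 DC 8 h libraries were above all unstimulated and IF libraries, and DC 22 h replicate 2 was the only other library above 45 CPM. Stat5a rose at DC 8 h by 1.00 ± 0.25 (55.7 ± 14.8 against 27.8 ± 2.35 CPM, adjusted p = 0.0227). The call was lost without any 1 of the 3 unstimulated libraries (adjusted p = 0.0562, 0.0851 and 0.0894) or without DC 8 h replicate 2 (0.76, adjusted p = 0.124). The other groups differed from unstimulated cells by 0.40 ± 0.25 (IF 8 h), 0.12 ± 0.25 (IF 22 h) and 0.45 ± 0.25 (DC 22 h), and none passed (adjusted p from 0.307 to 0.843). Without DC 22 h replicate 2 alone, the DC 22 h difference was 0.23 (adjusted p = 0.691), and with library size alone it was 0.78 (adjusted p = 0.0483).

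Stat5b group means stayed between 77 and 93.7 CPM, a 1.22-fold span, the narrowest of the 9 genes. Its differences from unstimulated cells were -0.03 ± 0.16, 0.17 ± 0.16, 0.01 ± 0.16 and -0.11 ± 0.16 at IF 8 h, DC 8 h, IF 22 h and DC 22 h. Their 95% intervals lay between -0.45 and 0.51. The share of Stat5a in the summed Stat5a and Stat5b counts was 27.4%, 26.6% and 21.5% in unstimulated libraries and 31.2%, 46.2% and 33.6% at DC 8 h. All DC 8 h shares were higher (37 ± 8.07% against 25.2 ± 3.23%, SD, n = 3 each, two-sided exact permutation p = 0.1, the smallest that 3 against 3 allows). In the other 5 comparisons tested, the exact permutation p of this share ran from 0.2 to 0.8, and the lowest adjusted over all 6 was 0.48. Across the 15 libraries the log2 levels of Stat5a and Stat5b had a Pearson r of -0.04, as a description.

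Stat4, the factor through which IL-12 drives interferon gamma, passed the test at IF 22 h. It held 60.8, 62.7 and 66.1 CPM in unstimulated libraries, 91, 119 and 93.8 at IF 8 h and 142, 148 and 126 at IF 22 h. DC libraries held 108, 66.6 and 111 CPM at 8 h and 111, 62.4 and 107 at 22 h. The IF 22 h libraries were above all others, while replicate 2 of both DC groups lay at the unstimulated level. Stat4 rose at IF 22 h by 1.13 ± 0.23 (139 ± 11 against 63.2 ± 2.7 CPM, adjusted p = 0.00681). The call held in 12 of 13 alternatives and ended when IF 22 h replicates 2 and 3 were both left out, at 1.17 (adjusted p = 0.111). The differences at IF 8 h (0.68 ± 0.23), DC 8 h (0.59 ± 0.23) and DC 22 h (0.56 ± 0.23) did not pass (adjusted p = 0.0831, 0.138 and 0.148). At IF 8 h Stat4 passed in 4 of 12 alternatives, which were DESeq2 (adjusted p = 0.0467), no filter (0.0381), library size alone (0.0191) and only the groups compared (0.0125). Without DC 22 h replicate 2, Stat4 passed at DC 22 h (0.81, adjusted p = 0.0271), and without replicate 2 of both DC groups it passed at both DC times. IF and DC cells differed by 0.09 ± 0.23 at 8 h and 0.57 ± 0.22 at 22 h (adjusted p = 0.984 and 0.217).

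Stat2, a factor of the type I interferon response, was among the lowest in counts, with 59 to 355 per library. Unstimulated libraries held 24.4, 16.6 and 21.2 CPM. IF libraries held 34.3, 19.9 and 16.3 CPM at 8 h and 12.5, 7.05 and 14.9 at 22 h. DC libraries held 35.2, 39.2 and 23.9 CPM at 8 h and 24.5, 38.3 and 28.8 at 22 h. The IF 22 h libraries were below all others. At 22 h Stat2 was lower in IF than in DC cells, with a log2 fold change of -1.40 ± 0.32 (11.5 ± 4.02 against 30.5 ± 7.06 CPM, adjusted p = 0.0282). The call was lost without IF 22 h replicate 2 (-1.15, adjusted p = 0.16) or DC 22 h replicate 2 (-1.21, adjusted p = 0.078), without both IF 22 h replicates 2 and 3 (-1.29, adjusted p = 0.634), and in a fit of only the groups compared (-1.42, adjusted p = 0.104). Against unstimulated cells IF 22 h differed by -0.84 ± 0.32 (adjusted p = 0.142), and against IF 8 h by -1.03 ± 0.32 (adjusted p = 0.148), or by -0.63 without IF 8 h replicate 1 (adjusted p = 0.461). The dendritic cell marker shares at 22 h, 0.0416% to 0.064% in IF and 0.0555% to 0.0765% in DC libraries, overlapped. Single markers differed in direction there: Fscn1 averaged 23.7 CPM in IF and 85.1 in DC libraries, and Itgax 20 and 3.95. The part of dendritic cell RNA in the Stat2 values was not tested. At 8 h IF and DC differed by -0.47 ± 0.32 (adjusted p = 0.794). The change of the difference between times was -0.93 ± 0.45 (adjusted p = 0.631).

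Stat6, the IL-4 factor, stayed between group means of 75.1 and 99.8 CPM. DC 8 h libraries were tight and highest, at 99.6, 97.9 and 102 CPM against 92.2, 73 and 66.3 in unstimulated libraries. The difference of 0.37 ± 0.17 did not pass (adjusted p = 0.222), nor did that between DC 22 h and DC 8 h (-0.41 ± 0.17, adjusted p = 0.439).

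**Figure D2:**
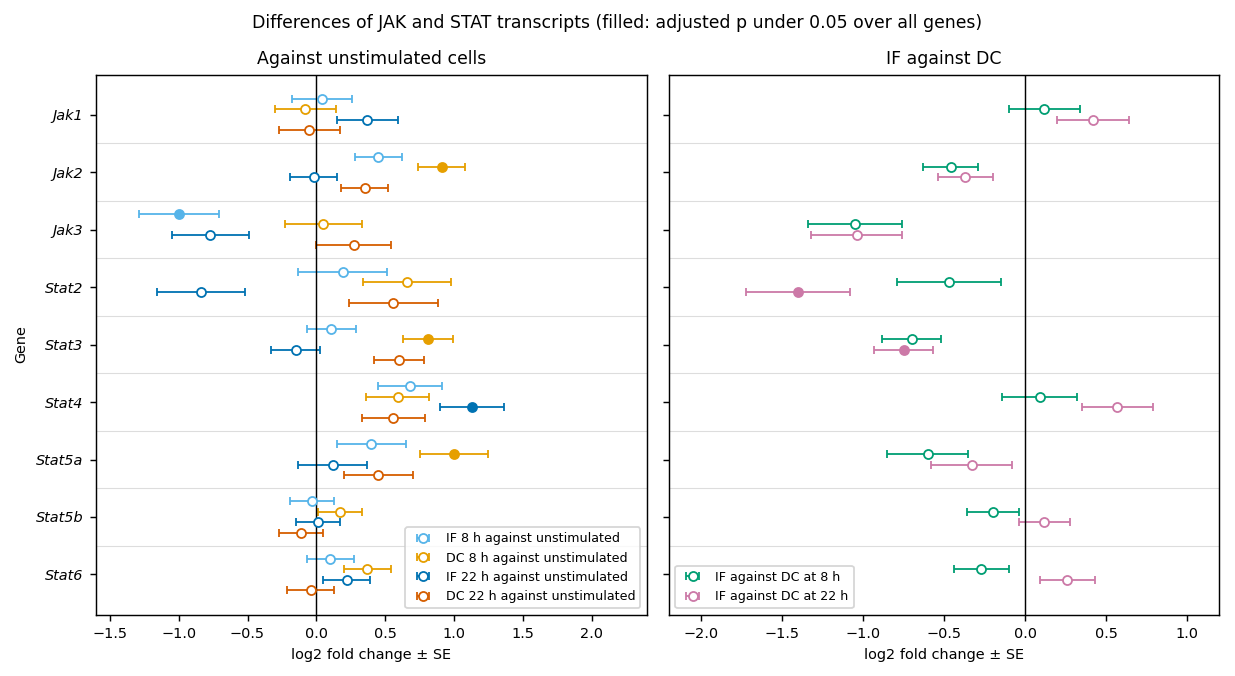
Log2 fold change ± SE of the 9 transcripts against unstimulated cells (left) and of IF against DC cells (right); filled points passed at an adjusted p under 0.05 over all genes tested. The 3 filled DC 8 h points are Jak2, Stat3 and Stat5a, between 0.81 and 1.00, and Jak3 lies at -1.05 and -1.04 in IF against DC.

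Counted together, 3 of 9 genes rose and 0 fell at DC 8 h, where 6.82% of all genes tested changed, 2.75% up and 4.07% down. At IF 8 h, 1 of 9 fell and 0 rose, beside 7.76% of all genes called, 4.72% lower and 3.04% higher. At IF 22 h, 1 of 9 rose and 0 fell, beside 6.08% of all genes called, 2.63% higher and 3.44% lower. At DC 22 h 0 of 9 passed in the edgeR test, beside 7.76% of all genes, 3.41% higher and 4.35% lower. There 2 of 9 had an unadjusted p under 0.05, as did 22.2% of all genes, and DESeq2 called 1 of 9 and 10.8% of all genes. Between stimuli 2 of 9 were lower in IF at 22 h, and 0 higher, beside 2.43% of genes called, 1.2% lower and 1.23% higher. At 8 h 0 of 9 passed in edgeR, beside 0.665% of all genes (0.231% higher, 0.434% lower). There 4 of 9 had an unadjusted p under 0.05, beside 8.27% of all genes, and DESeq2 called 2 of 9, beside 1.63%. From 8 h to 22 h, 0 of 9 passed within IF (1.12% of all genes) or within DC (0.48%) in edgeR. Unadjusted p values under 0.05 numbered 2 within IF, beside 15% of all genes, and 3 within DC, beside 9.03%, and DESeq2 called 0 and 1, beside 3.28% and 1.88%. The change of the difference between stimuli passed for 0 of 9 genes and 0% of all genes in edgeR, with 1 unadjusted p under 0.05, beside 7.92% of all genes, that of Stat6 (0.53 ± 0.24, adjusted p = 0.602 in edgeR), and with 0 called by DESeq2, beside 0.305%.

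The median difference of the 9 genes was 0.59 at DC 8 h, beside 0.04 over all genes, and 0.35 at DC 22 h, beside 0.04. It was 0.11 at IF 8 h and 0.01 at IF 22 h, beside 0.02 and 0.01. Between stimuli the median was -0.46 at 8 h and -0.33 at 22 h, beside -0.01 and -0.02. The comparisons against unstimulated cells share the same 3 libraries. Groups did not overlap for 5 of 9 genes at DC 8 h (28.2% of all genes) and for 3 of 9 at DC 22 h (27.1%). For the filaments these counts were 3 of 9 after 8 h (30.6%) and 4 of 9 after 22 h (30.4%). Between stimuli they did not overlap for 5 of 9 genes at 8 h (13.5%) and 5 at 22 h (19.9%), and from 8 h to 22 h for 3 within IF (21.5%) and 3 within DC (13.9%). Between stimuli these were Jak2, Jak3, Stat3, Stat5a and Stat6 at 8 h, all lower in IF, and Jak2, Jak3, Stat2 and Stat3, lower in IF, with Stat4, higher in IF, at 22 h.

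**Figure D3:**
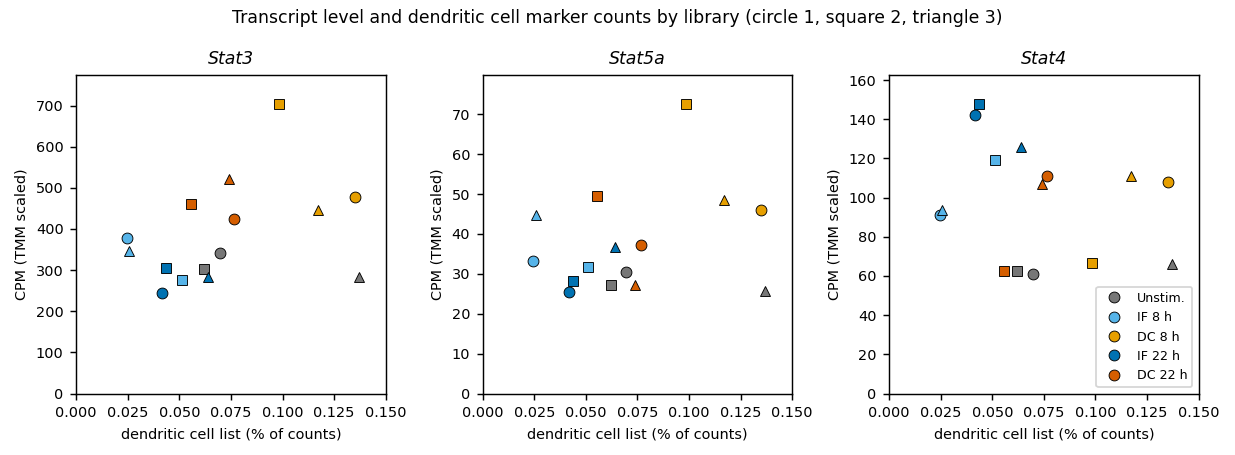
Level of Stat3, Stat5a and Stat4 (CPM, vertical axis from 0) against the summed share of 19 dendritic cell markers (% of counts) in the 15 libraries, coloured by group. In both DC groups replicate 2 (square) has the lowest marker share, 0.0985% and 0.0555%, and the highest Stat5a and lowest Stat4 of its group.

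Replicate 2 held the highest or lowest level of its DC group for all 9 genes at 8 h and for all but Stat3 at 22 h. With 3 libraries in a group, any 1 of them is often the highest or lowest, and the share over all genes was not computed. Both replicate 2 libraries also deviated from their groups in like ways across genes (r = 0.72), so this is not particular to the 9 genes. DC 8 h replicate 2 held the most Stat2, Stat3 and Stat5a and the least Jak1, Stat4, Stat5b and Stat6 of its group, and DC 22 h replicate 2 held the most Stat2 and Stat5a and the least Jak1, Stat4, Stat5b and Stat6. For Jak2 and Jak3 they lay at opposite edges, with the most of their group at 8 h (88.6 and 43.2 CPM) and the least at 22 h (53.8 and 32.5). Their dendritic cell marker shares, 0.0985% and 0.0555%, were the lowest of their groups. With both libraries left out, an alternative chosen after seeing the data, Stat3 still passed at DC 8 h (0.58, adjusted p = 0.0358) and Stat5a did not (0.75, adjusted p = 0.0543). Stat4 then passed at DC 8 h (0.79, adjusted p = 0.00444) and at DC 22 h (0.81, adjusted p = 0.0037), and Stat3 also passed at DC 22 h (0.64, adjusted p = 0.0195). Between stimuli at 22 h Jak3 then passed (-1.23, adjusted p = 0.0256) and Stat2 no longer did (-1.21, adjusted p = 0.0668).

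Across the 15 libraries, which share the group structure above, Jak2 and Stat3 had a Pearson r of 0.79 in log2 CPM, Jak2 and Stat5a 0.77, and Stat3 and Stat5a 0.74. Jak1 and Stat4 had 0.74, and Jak1 and Stat5a -0.66. Of 5144 genes with a mean of at least 20 CPM, those most like Stat3 were Pim2 (r = 0.94), a survival kinase, and Bcl2l1 (r = 0.91), which encodes the anti-apoptotic BCL-XL. Most like Stat4 were Sesn1 (0.96), a stress-response sestrin, and Zfp825 (0.93). Jak3 was most like Socs3, an inhibitor of JAK kinases, and Samd9l (0.87 each). Jak2 was most like Alkbh6 (0.91) and Tmem128 (0.89), Stat5a most like the proteasome subunit gene Psma4 (0.88) and the chaperonin gene Tcp1 (0.86), and Stat2 most like Lsm12 (0.85) and Larp1 (0.84).

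For Tyk2, the JAK of interferon and IL-12 receptors, the lowest adjusted p of any comparison was 0.107. Around the 9 genes, 78 of 89 listed pathway genes could be tested, Tyk2 included. At DC 8 h 12 rose and 2 fell, beside 2.75% and 4.07% of all genes, and at DC 22 h 13 rose and 6 fell, beside 3.41% and 4.35%. At IF 8 h 8 rose and 11 fell, beside 3.04% and 4.72% of all genes, and at IF 22 h 4 rose and 17 fell, beside 2.63% and 3.44%. Between stimuli 9 were lower and 0 higher in IF at 8 h, beside 0.434% and 0.231% of all genes, and 19 were lower and 1 higher at 22 h, beside 1.2% and 1.23%. Medians over the 78 genes were 0.10, 0.01, -0.17, -0.26, -0.21 and -0.59 in that order, beside all-gene medians between -0.02 and 0.04. Without both IF 22 h replicates 2 and 3, 1 rose and 6 fell at IF 22 h and 1 was lower than in DC cells, while the share of all genes called went from 6.08% to 0.833% and from 2.43% to 0.0673%. Of the 5 genes in the low set of those libraries, Il27ra fell at IF 22 h by 1.71 ± 0.38 (adjusted p = 0.0124). That call held in 4 of 6 omissions of a library (adjusted p up to 0.07). Over all comparisons the listed genes had 109 calls, of which 53 held when each library of the groups compared was left out in turn, 40 held in every alternative and 0 changed sign.

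Of 19 receptor chains, 18 could be tested. Il2ra, the inducible high-affinity chain of the IL-2 receptor, rose in all 4 stimulated groups, by 4.54 ± 0.97, 4.70 ± 0.97, 3.73 ± 0.96 and 4.42 ± 0.96 at IF 8 h, DC 8 h, IF 22 h and DC 22 h. The Il2ra call held in 5, 6, 1 and 4 of 6 omissions of a library, in that order. At IF 22 h its adjusted p reached 0.126 in these, and it was 0.262 with IF 22 h replicates 2 and 3 both left out. Il2rg, the common gamma chain to which JAK3 binds, fell at 22 h by 0.69 ± 0.13 in IF and 0.50 ± 0.12 in DC cells. It averaged 4302 ± 173 CPM in unstimulated cells and 2661 ± 18.6 at IF 22 h. Il4ra, the IL-4 receptor chain upstream of STAT6, fell at IF 8 h, IF 22 h and DC 22 h by 0.92 ± 0.19, 1.15 ± 0.19 and 0.82 ± 0.19. Il12rb2, the IL-12 receptor chain upstream of STAT4, averaged at most 1.66 CPM in any group. The fall at DC 22 h held in 1 of 6 omissions of a library for Il2rg and in 4 of 6 for Il4ra. The falls at IF 22 h ended without both IF 22 h replicates 2 and 3 (Il2rg adjusted p = 0.105, Il4ra 0.0857). Of 15 ligands, 5 had enough reads to be tested, 1 of them Ifng, which STAT4 activates. It averaged 15.7 CPM in unstimulated cells, 8.72 at IF 8 h, 13.2 at DC 8 h and 9.82 at IF 22 h. At DC 22 h its libraries ran from 4.67 to 75.4 CPM, and the difference from unstimulated cells did not pass (adjusted p = 0.608).

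Of 20 listed inhibitors, 3 were lower and 0 higher in IF than in DC cells at 8 h (0.434% and 0.231% of all genes), and 4 were lower and 1 higher at 22 h (1.2% and 1.23%). Cish, a feedback inhibitor induced by STAT5, averaged 4.22 ± 0.302 CPM in unstimulated cells, 64.2 ± 44.2 at DC 8 h and 46.2 ± 30.6 at DC 22 h, against 7.89 ± 3.47 and 3.40 ± 1.32 at IF 8 h and IF 22 h. It rose by 3.92 ± 0.55 at DC 8 h and 3.44 ± 0.54 at DC 22 h. In IF it was lower than in DC cells, with -3.00 ± 0.52 at 8 h (adjusted p = 0.0108) and -3.71 ± 0.53 at 22 h (adjusted p = 0.000973). The Cish call at 8 h held in 5 of 6 omissions and was lost without IF 8 h replicate 3 (adjusted p = 0.0689). Socs2, another STAT5-induced inhibitor, averaged 22.1 ± 10.0 CPM at DC 8 h and 0.506 ± 0.727 at IF 8 h. Socs3, an inhibitor of receptors that use STAT3, fell at IF 8 h by 1.85 ± 0.32 and at IF 22 h by 1.13 ± 0.29, and rose at DC 22 h by 1.56 ± 0.29. The fall at IF 22 h held in 2 of 6 omissions of a library and had an adjusted p of 0.517 without both IF 22 h replicates 2 and 3. Its range was 8.29 to 10.7 CPM at IF 8 h and 62.3 to 143 at DC 22 h. Socs1 rose at IF 8 h, DC 8 h and DC 22 h by 0.96 ± 0.23, 1.29 ± 0.23 and 1.43 ± 0.23, and the rise at IF 8 h held in 2 of 6 omissions. Cblb, a ubiquitin ligase that restrains T cell activation, rose in all 4 groups and was the 1 listed gene higher in IF than in DC at 22 h (0.87 ± 0.19, adjusted p = 0.0214). That Cblb call and its rise at DC 22 h each held in 3 of 6 omissions. Against unstimulated cells, 5 inhibitors rose at DC 8 h and 6 at DC 22 h, beside 2.75% and 3.41% of all genes. In IF cells 3 rose and 1 fell at 8 h, beside 3.04% and 4.72%, and 2 rose and 1 fell at 22 h, beside 2.63% and 3.44%. With 1 library left out at a time, 1 to 3 rose and 1 fell at IF 8 h, beside 3.75% to 5.13% of all genes called. At IF 22 h 2 rose and 0 to 3 fell, beside 2.53% to 8.49%. With IF 22 h replicates 2 and 3 both left out, 0 of 20 were called between stimuli at 22 h (adjusted p = 0.147 for Cish, 0.101 for Socs3 and 0.844 for Cblb).

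Listed targets of the STATs went in both directions. Of the 3 STAT3 targets, Bcl3 rose at DC 8 h by 2.57 ± 0.26 and at DC 22 h by 2.37 ± 0.25 (26.6 ± 8.47 CPM in unstimulated cells, 158 ± 39.9 and 138 ± 21.1 in DC cells). It was lower in IF than in DC cells, with -1.91 ± 0.25 at 8 h and -2.79 ± 0.26 at 22 h. Junb, an AP-1 gene, fell in all 4 groups, by 1.85 ± 0.17 to 3.42 ± 0.18. Of 10 STAT5 targets, 2 rose and 1 fell at DC 8 h, beside 2.75% and 4.07% of all genes. Bcl2l1 and Pim2 rose (2.36 ± 0.43 and 1.06 ± 0.18), while the survival gene Bcl2 fell there by 1.58 ± 0.20. Bcl2 also fell at IF 8 h (-1.55 ± 0.21), IF 22 h (-1.18 ± 0.20) and DC 22 h (-0.87 ± 0.20). Bcl6 rose at IF 8 h, IF 22 h and DC 22 h (2.16 ± 0.52, 1.82 ± 0.51 and 2.04 ± 0.51), calls that held in 3, 0 and 3 of 6 omissions. Ccnd3 fell at IF 8 h and IF 22 h (-0.97 ± 0.21 and -0.77 ± 0.20), held in 6 and 1 of 6. The 3 STAT4 targets did not pass at 22 h in edgeR. At IF 22 h the differences from unstimulated cells were -0.59 ± 0.48 for Tbx21, the T-bet gene, and 0.68 ± 0.40 and 0.50 ± 0.67 for Il18r1 and Il18rap, the IL-18 receptor chains (adjusted p = 0.536, 0.367 and 0.737). Against DC cells at 22 h they were -0.47 ± 0.47, 1.28 ± 0.40 and 2.32 ± 0.71, with adjusted p = 0.711, 0.115 and 0.105. The STAT6 target Gata3 fell at IF 22 h by 1.14 ± 0.30. That call held in 1 of 6 omissions of a library (adjusted p up to 0.159), and its adjusted p was 0.634 with IF 22 h replicates 2 and 3 both left out. Gzmb, the granzyme B gene, was lower in IF than in DC cells at 22 h (-2.96 ± 0.56), with a wide spread in DC cells (296 ± 259 CPM) and an adjusted p of 0.321 without both IF 22 h replicates 2 and 3.

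Of 11 interferon-induced targets of STAT factors, 9 were lower in IF than in DC cells at 22 h, beside 1.2% of all genes, and 7 fell from the unstimulated level at IF 22 h, beside 3.44%. Isg15, a ubiquitin-like interferon-induced gene, averaged 0.579 ± 0.401 CPM at IF 22 h, 12.2 ± 0.801 at DC 22 h and 17.1 ± 7.63 in unstimulated cells (IF against DC -4.19 ± 0.55, adjusted p = 0.000521). Irf7, a factor of the interferon loop, averaged 14.3 ± 2.33, 61.9 ± 14.1 and 93.5 ± 29 CPM in the same groups (-2.11 ± 0.31, adjusted p = 0.00101). Irf9, which binds STAT2, was lower at 22 h too (-0.77 ± 0.20, adjusted p = 0.0477). The Irf9 call held in 2 of 6 omissions of a library. With 1 library left out at a time, 6 to 9 of the 11 targets were called lower than in DC cells. With IF 22 h replicates 2 and 3 both left out, 0 of 11 were called against DC cells and 5 of 11 against unstimulated cells. After 8 h with the filaments 5 of the 11 targets fell and 2 rose, beside 4.72% and 3.04% of all genes. Those that fell were Mx1 (-1.90 ± 0.31), Isg20 (-1.46 ± 0.31), Irf7 (-1.30 ± 0.30), Ifit1 (-1.71 ± 0.44) and Usp18 (-2.16 ± 0.62), and the Usp18, Irf7 and Ifit1 calls held in 1, 3 and 4 of 6 omissions of a library. Cxcl10, a chemokine gene, rose by 2.79 ± 0.75, a call that held in 1 of 6 omissions. Gbp2, a guanylate-binding protein gene induced by interferon gamma, rose at IF 8 h and DC 8 h by 3.10 ± 0.48 and 3.02 ± 0.48.

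**Figure D4:**
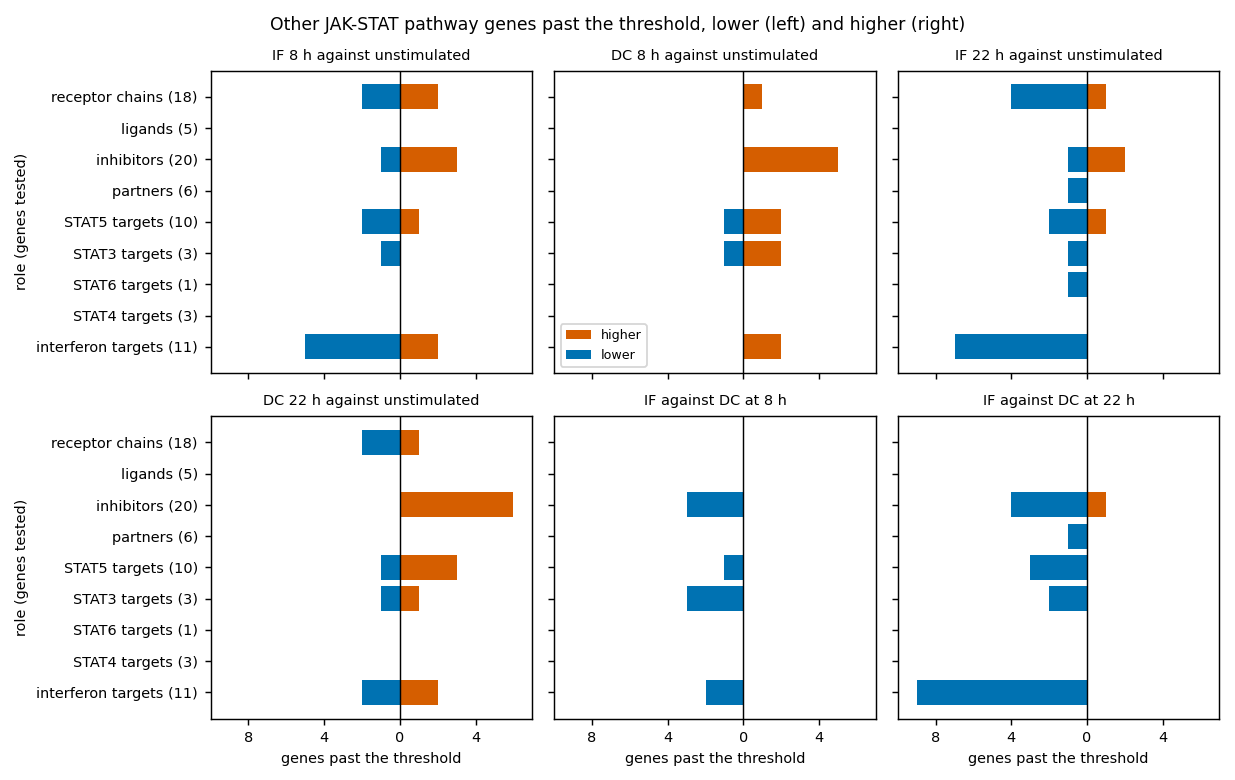
Number of genes past the threshold in each role of the pathway, lower to the left and higher to the right, in 6 comparisons; the genes tested in each role are in parentheses. Against DC at 22 h, 9 interferon targets and 4 inhibitors lie to the left; at DC 8 h and DC 22 h, 5 and 6 inhibitors lie to the right.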

How the data were processed

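RNA of 15 libraries was analysed, 3 in each of 5 groups, grouped by treatment and time in the labels. The authors deposited 1 table of raw counts per gene for each library; per the submitters' processing notes BWA and mm10 were used, and the counting program, annotation, strand setting and use of molecular identifiers are not given in the sources used here. The 9 genes, the pathway and marker lists and the tests were chosen with earlier results of these data known. Counts were summed per library for depth and scaled by TMM. Genes with at least 10 counts in enough libraries and 15 in all were kept (10831), and edgeR 4.0.16 (R 4.3.3, limma 3.58.1) fitted 5 group means by quasi-likelihood in 1 model of all libraries. Two-sided p-values were adjusted by Benjamini-Hochberg over all genes tested, with a threshold of 0.05. CPM values and fold changes carry no bound from depth beyond the counts given. Scripts were tested on simulated data.

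Alternatives were DESeq2 1.42.0, other scalings, no filter, only the groups compared, a replicate block, and omitted libraries. All 9 genes were named; pathway genes were drawn from those that passed or had 1 of the 3 lowest p-values of their role, and for each called member the 2 genes with the highest Pearson r over 15 libraries (prior count 2, mean of at least 20 CPM) were added. Replicates carry the same tags in every group (Don1, Don2 and Don3), whose meaning the labels do not spell out, and nothing says that they are separate animals, so p-values measure only the spread between these libraries. Gene positions are from GENCODE on GRCm38, promoters from RefSeq; no protein sequence was used here. 1 gene was left out of the pathway list and is not reported here. Same-numbered libraries of DC 8 h and DC 22 h deviated together across genes (r = 0.35, 0.72 and 0.56). Replicate 1 at DC 8 h correlated more with replicate 3 at DC 22 h (0.39) than with replicate 1. Replicate 3 at DC 8 h also correlated with replicate 1 at DC 22 h (0.37). Deviations from a mean of 3 libraries depend on each other, and replicate 2 stood apart in both groups. The check therefore cannot show that replicates 1 and 3 were paired.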

Additional observations from a re-analysis of the deposited data

Results flagged for a closer look

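The direct test between stimuli at 22 h passed for 2 of the 9 genes, beside 2.43% of all genes tested (1.2% lower in IF). Stat2 was lower in IF than in DC cells (log2 fold change -1.40 ± 0.32, adjusted p = 0.0282), with IF libraries at 12.5, 7.05 and 14.9 CPM and DC libraries at 24.5, 38.3 and 28.8. Stat3 was lower as well (-0.75 ± 0.18, adjusted p = 0.0369), with IF libraries at 244, 306 and 284 CPM and DC libraries at 425, 461 and 522. Both were lower in all 3 IF libraries than in all 3 DC libraries. With 1 library left out at a time, the Stat2 call held in 4 of 6 omissions and the Stat3 call in 1 of 6, and a fit of only the groups compared ended both (adjusted p = 0.104 and 0.095), as did leaving out IF 22 h replicates 2 and 3 together (0.634 and 0.369).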

How the results depend on the processing

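Every difference of the 9 genes that passed in at least 1 analysis kept its sign in all alternatives. Signs of the differences that never passed were not compared. Of the 9 genes, the number past the threshold moved as follows. At IF 8 h (1 in the main analysis) it was 2 with library size alone, with no filter, with only the groups compared and with DESeq2, and at DC 8 h (3) it was 5 with library size alone. At IF 22 h (1) it was 0 without both IF 22 h libraries 2 and 3. At DC 22 h (0) it was 4 with library size alone, 1 with no filter, 1 with DESeq2 and 2 without both DC libraries numbered 2, where 14.6%, 7.46%, 10.8% and 6.29% of all genes were called against 7.76% in the main analysis. Between stimuli at 8 h (0) it was 2 with no filter and 2 with DESeq2. At 22 h (2) it was 3 with library size alone, with no filter and with DESeq2, each adding Jak3, a fit of the groups compared alone gave 0, and leaving out both IF 22 h libraries 2 and 3 gave 0. Within IF (0) no filter gave 1, beside 2.93% of all genes (1.12% in the main analysis), and within DC (0) DESeq2 gave 1, beside 1.88% (0.48%). Leaving out 1 library at a time gave 0 to 1 at IF 8 h, 1 to 3 at DC 8 h, 1 to 2 at IF 22 h, 0 to 1 at DC 22 h, 0 to 2 between stimuli at 22 h and 0 to 0 in the other 4 comparisons. The share of all genes called in these omissions was 3.75% to 5.13% at IF 8 h, 3.61% to 5.94% at DC 8 h, 2.53% to 8.49% at IF 22 h, 4.06% to 8.81% at DC 22 h and 0.805% to 6.81% between stimuli at 22 h, and the highest at IF 22 h and between stimuli came without IF 22 h replicate 1. Scaling by library size alone shifted the median of all genes to 0.26, 0.30, 0.22 and 0.37 at IF 8 h, DC 8 h, IF 22 h and DC 22 h, and to -0.15 between stimuli at 22 h. The share of all genes called at IF 8 h was 10.3% with library size alone, 6.82% with no filter, 13.7% with only the groups compared and 11.3% with DESeq2 (7.76% in the main analysis). At DC 8 h it was 9.96% with library size alone (6.82%). Between stimuli at 8 h it was 1.26% with no filter and 1.63% with DESeq2 (0.665%), and at 22 h 2.47% with library size alone, 4.12% with no filter, 5.3% with DESeq2 and 0.687% with only the groups compared (2.43%). The cause of these changes was not tested, except that omissions leave fewer libraries.

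With the replicate number as a block, 1 of the 9 genes passed between stimuli at 22 h in place of 2 (Stat3 adjusted p = 0.0533). Of 30 same-numbered pairs of libraries 5 correlated above 0.1 (r from -0.39 to 0.72), and 6 of 15 libraries correlated best with their own number. All 3 pairs of DC 8 h with DC 22 h were among the 5, and there 0 of 9 genes passed in edgeR with or without the block. Also among the 5 were IF 22 h replicate 1 with DC 8 h replicate 1 (r = 0.21) and with DC 22 h replicate 1 (r = 0.16). Replicates 2 and 3 of IF 22 h and DC 22 h had r = 0.03 and -0.39. Depth limits Jak3 and Stat2 most, with as few as 35 and 59 counts in a library, and intervals cover the spread of 3 libraries a group.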
